A study of Mus musculus with 2 samples.

Results

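The EGR, KLF and IER immediate-early genes, 10 of 55536 annotated genes in the gene tables, were read in nucleoplasmic RNA of stimulated mouse macrophages. They were chosen by symbol, with earlier results of these data known. The set holds the EGR factor genes Egr1, Egr2 and Egr3 and the nuclear receptor gene Nr4a1. It also holds the immediate early response genes Ier2, Ier3 and Ier5, and the Krüppel-like factor genes Klf2, Klf4 and Klf6. The cells were primary macrophages grown from bone marrow of C57BL/6J mice, with no genetic change named in the labels. They had received Lipid A, the membrane anchor of lipopolysaccharide that TLR4 senses, at 100 ng/ml for 90 min, and RNA of the nuclear fraction was depleted of ribosomal RNA before sequencing. There was 1 group with 2 biological replicates, both tied to 1 donor entry, and their spread may therefore be technical in part. Sex and age were not collected, and replicate 1 started from 1 µg of RNA and replicate 2 from 500 ng.

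Both libraries came from stimulated cells, so the values below are levels at 90 min and carry no measure of induction. Replicate 1 had 22669533 estimated counts in its gene table and replicate 2 had 14939143, of which 22412217 and 14893750 were in annotated genes. Over the counts in annotated genes, 3 counts, the limit that a count of 0 allows, were a CPM of 0.134 and 0.201. Each library was quantified in 2 ways, and values are from the first, the source of the gene tables, unless the second is named. Levels are in TPM, an abundance divided by transcript length and scaled to the same total in each library, and means are given ± SD over both libraries (n = 2). Features with an effective length under 200 bases took 73.9% of all TPM in replicate 1 and 57.0% in replicate 2, so longer genes shared an unequal remainder. All 10 macrophage markers looked up reached 1 TPM in both libraries, with a summed level of 2112 and 2821 TPM. Of the 40 markers of other cell types, 3 reached 1 TPM in both libraries: Kdr of endothelial cells (3.03 and 3.47 TPM), S100a9 of neutrophils (1.59 and 1.54 TPM) and Zbtb46 of dendritic cells (1.05 and 2.12 TPM). Lck, in the list of T and NK cell markers, had 2.17 and 0.680 TPM. Listed at 0 in both libraries were 5 of 7 T and NK cell markers and 3 of 7 neutrophil markers. The same held for 2 of 5 markers of mast cells, basophils and eosinophils and 2 of 5 erythroid and megakaryocyte markers. No B-cell, dendritic cell or stromal and endothelial marker was at 0 in both. The RNA came from many cells at once, so fewer cells with a transcript and less of it per cell cannot be told apart.

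Immediate-early genes are transcribed within minutes of a stimulus from factors already present in the cell, with no need for new protein. In macrophages, TLR4 reaches many of them through the kinase TPL2 (Map3k8) and the MEK-ERK cascade, which acts on serum response factor and its ELK partners at the CArG box, and on CREB at the cyclic AMP response element (CRE). NF-kB adds to this at some of the genes. Their messages are typically short-lived, and many carry AU-rich elements in the 3′ UTR that recruit decay factors such as tristetraprolin (Zfp36). EGR and KLF proteins bind GC-rich DNA through zinc fingers, so the early response passes on to a later wave of genes.

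Promoter sequences were taken from RefSeq (build GRCm38.p6), as windows from 250 bases before to 50 bases after the start, and those of 7 of the 10 genes were used, without Egr1, Egr3 and Ier2. The 4 windows below belong to the most abundant member (Klf6), to the member that differed most between the libraries among those at 1 TPM or more (Ier3), and to the 2 members richest in the response elements named above (Egr2 and Nr4a1). Capitals mark a CArG box, the CRE core TGACG on either strand, or an NF-kB site, and the Klf6 window held none of these. The windows lie at chr13:5861239-5861538 (plus strand) for Klf6, chr17:35821463-35821762 (plus) for Ier3, chr10:67537619-67537918 (plus) for Egr2 and chr15:101266596-101266895 (plus) for Nr4a1.
Egr2: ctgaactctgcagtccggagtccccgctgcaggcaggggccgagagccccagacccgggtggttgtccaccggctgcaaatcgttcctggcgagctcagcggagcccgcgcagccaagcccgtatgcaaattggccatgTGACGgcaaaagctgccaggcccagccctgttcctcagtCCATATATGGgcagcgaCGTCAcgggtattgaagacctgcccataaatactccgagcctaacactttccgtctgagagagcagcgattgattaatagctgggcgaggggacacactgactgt
Nr4a1: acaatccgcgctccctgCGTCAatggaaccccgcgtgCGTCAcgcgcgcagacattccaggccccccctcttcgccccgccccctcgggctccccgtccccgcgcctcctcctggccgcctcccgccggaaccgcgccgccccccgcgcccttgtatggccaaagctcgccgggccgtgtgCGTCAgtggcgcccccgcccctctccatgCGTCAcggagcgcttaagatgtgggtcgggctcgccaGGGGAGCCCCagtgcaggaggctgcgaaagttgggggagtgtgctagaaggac
Ier3: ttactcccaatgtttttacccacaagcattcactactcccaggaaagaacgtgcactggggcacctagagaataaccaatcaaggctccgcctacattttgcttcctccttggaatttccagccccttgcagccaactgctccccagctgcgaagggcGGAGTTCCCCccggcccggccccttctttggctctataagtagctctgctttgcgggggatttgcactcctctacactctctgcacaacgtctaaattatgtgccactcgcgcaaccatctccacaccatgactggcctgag
Klf6: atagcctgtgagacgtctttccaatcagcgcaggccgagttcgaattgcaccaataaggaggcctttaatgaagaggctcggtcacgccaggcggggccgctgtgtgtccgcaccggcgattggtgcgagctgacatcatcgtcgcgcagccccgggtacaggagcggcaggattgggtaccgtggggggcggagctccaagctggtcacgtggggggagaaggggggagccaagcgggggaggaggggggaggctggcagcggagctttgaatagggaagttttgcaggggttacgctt

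Positions are counted from the RefSeq start, with -1 just before it. Egr2 had the CArG box CCATATATGG at -72 to -63, between CRE cores at -111 to -107 and -55 to -51. A CArG box occurred in 1.63% of all 32817 windows of the table, and of the 7 windows examined Egr2 alone had one. Nr4a1 had 4 CRE cores, which began at -233, -213, -69 and -40, against a share of 20.8% of all windows with at least 1. It also had an EGR site (GCGNGGGCG, in 5.56% of all windows) at -60 to -52, which overlapped a GC box (GGGCGG) at -55 to -50, and an NF-kB site across the start, from -3 to 7. Ier3 had an NF-kB site at -92 to -83, which overlapped its single GC box at -96 to -91, and NF-kB sites stood in 4.50% of all windows. Klf6 had 1 GC box, at -63 to -58, a motif present in 35.6% of all windows.

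The other 3 windows held GC boxes as well. Ier5 had 2 GC boxes, at -99 to -94 and -75 to -70. Klf2 had a CRE core at -241 to -237, an EGR site at -199 to -191 and 2 GC boxes, of which the one at -195 to -190 overlapped the EGR site. Klf4 had a CRE core at -232 to -228, 2 EGR sites, and 4 GC boxes, of which those at -212 to -207 and -189 to -184 each overlapped an EGR site. No window had the full CRE TGACGTCA (1.79% of all windows), the AP-1 site TGANTCA (7.81%) or TATAAA (13.6%). The GC content was 54.0% in Ier3, 59.0% in Ier5, 60.0% in Egr2, 63.0% in Klf6, 69.3% in Klf2, 72.3% in Nr4a1 and 74.3% in Klf4, and the median over all windows was 52.7%. A match is a description of the letters and does not show that a factor was bound.

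The members spanned a 482-fold range of mean level, with Klf6 at the top and Klf4 at the bottom. The range was 227-fold in the second quantification and 243-fold with the deposited posterior mean TPM, since it rests on the low value of Klf4. Of the 10, 9 reached 1 TPM in each library and 4 reached 10 TPM in each. The comparison set below, called expressed coding genes, is the 8566 of 21951 protein-coding genes that reached 1 TPM in each library. Of these 8566, 37.6% reached 10 TPM in each. The median of the means was 11.4 TPM over the 9 members that reached 1 TPM, 8.36 TPM over all 10, and 7.74 TPM over the expressed coding genes. Klf6 made up 57.1% of the members' summed TPM in replicate 1 and 58.4% in replicate 2. The summed estimated counts of the 10 genes were 21396 and 11924.

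**Figure D1:**
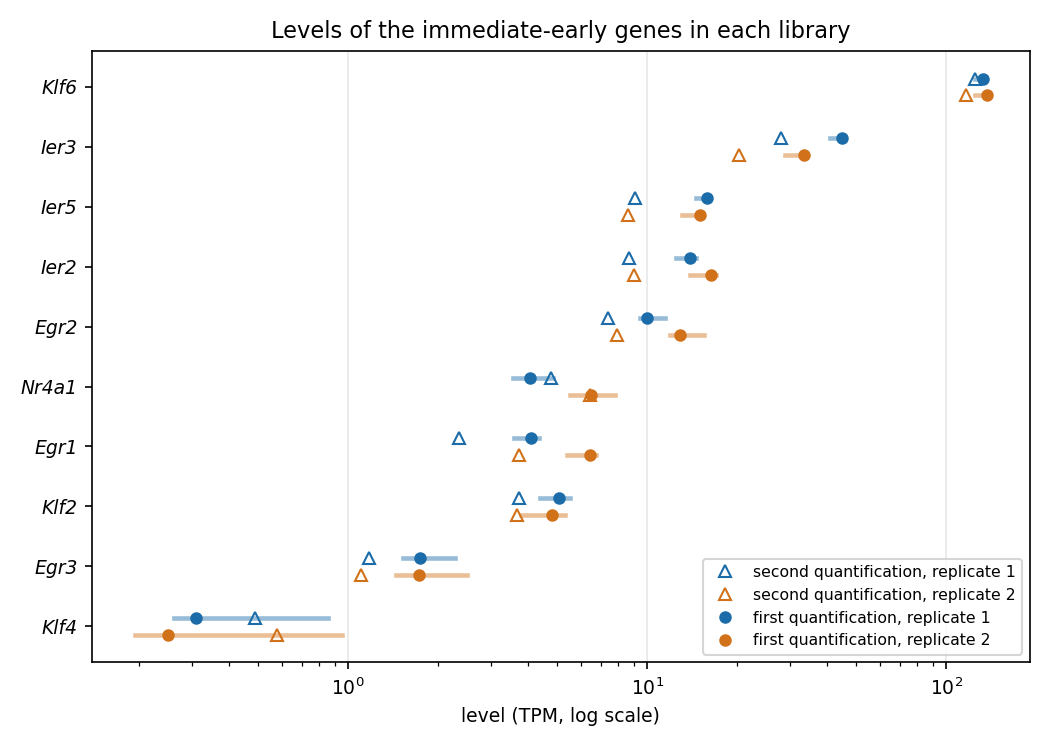
Level of each gene on a log axis of TPM, replicate 1 in blue and replicate 2 in orange. Filled points are the first quantification with the deposited interval as a bar, open triangles are the second quantification. Klf6 sits at 133 and 137 TPM in the first quantification, and Klf4 at 0.310 and 0.250 TPM has the widest bars in proportion to its level.

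Among the EGR genes, which encode closely related zinc-finger activators, Egr2 was the most abundant. Egr2 (chr10:67535475-67542188, plus strand, mm10) had 9.97 TPM in replicate 1 and 12.9 TPM in replicate 2, from 942 and 602 estimated counts. It averaged 11.4 ± 2.09 TPM and was above 61.4% of expressed coding genes in replicate 1 and 61.9% in replicate 2. Egr1 (chr18:34859823-34864984, plus strand), the best-studied early growth response factor, had 4.09 and 6.43 TPM (432 and 321 counts). It averaged 5.26 ± 1.65 TPM and was lower in replicate 1, as was the median of expressed coding genes (6.62 and 8.69 TPM). Egr3 (chr14:70077203-70082614, plus strand), a paralogue best known from lymphocytes and muscle spindles, had 1.74 and 1.72 TPM (211 and 110 counts) and averaged 1.73 ± 0.0141 TPM. No EGR gene's range over the libraries overlapped another's, and the order Egr2, Egr1, Egr3 was the same in both libraries.

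Nr4a1 (chr15:101254269-101274795, plus strand) encodes NUR77, an orphan nuclear receptor that restrains inflammatory gene expression in macrophages. It had 4.05 TPM in replicate 1 and 6.50 TPM in replicate 2, from 293 and 235 counts, and averaged 5.28 ± 1.73 TPM. Its range overlapped that of Egr1, so these neighbours in the order did not differ beyond their spread. It was above 34.8% of expressed coding genes in replicate 1 and 41.3% in replicate 2.

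Egr2 and Egr3 share part of their zinc-finger coding sequence, which is shown because a read that lies wholly within it could come from either gene. The longest run in common between the leading transcripts was 44 bases, inside the coding sequence of both (chromosomes 10 and 14, bases 1430 to 1473 of Egr2-201 and 1023 to 1066 of Egr3-204).
Egr2 and Egr3: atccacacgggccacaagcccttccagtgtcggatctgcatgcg

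This run accounted for 14 of the 3448 distinct 31-base words of Egr2 (0.406%). In Egr3, 23 of 4398 words (0.523%) recurred in another annotated gene, of which 8 were in Egr4. Egr1 shared no 31-base word with another gene. At a level near 1.73 TPM, Egr3 was the EGR gene with the fewest counts and the most shared words. The estimated counts of Egr2 and Egr3 were whole, within 0.01, in both libraries of both quantifications. The part of shared reads in the level of Egr3 was not tested.

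The IER genes were all in the upper part of the set. Ier3 (chr17:35821684-35822923, plus strand), which encodes the stress-inducible survival regulator also called IEX-1, had 44.7 and 33.5 TPM (1415 and 532 counts) and averaged 39.1 ± 7.88 TPM. It exceeded 90.7% of expressed coding genes in replicate 1 and 83.9% in replicate 2, and both values were above those of every member except Klf6. Ier5 (chr1:155096361-155099636, minus strand), a nuclear regulator of the heat-shock factor HSF1, had 15.8 and 15.0 TPM (1686 and 793 counts) and averaged 15.4 ± 0.594 TPM. Ier2 (chr8:84661331-84662852, minus strand), its relative by sequence, had 13.9 and 16.4 TPM (631 and 372 counts) and averaged 15.2 ± 1.78 TPM. The ranges of Ier5 and Ier2 overlapped, and their means stood in a ratio of 1.01. Both are single-exon genes, so unspliced and spliced RNA have the same sequence there.

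The KLF genes held both ends of the order. Klf6 (chr13:5861482-5870394, plus strand), a factor that promotes inflammatory gene expression in macrophages, had 133 TPM in replicate 1 and 137 TPM in replicate 2, from 15468 and 8811 counts. It averaged 135 ± 3.15 TPM, ranked 219 among the 8566 expressed coding genes and stood 3.45-fold above Ier3. Klf2 (chr8:72319033-72321656, plus strand), which holds back inflammatory activation in monocytes and macrophages, had 5.08 and 4.82 TPM (288 and 136 counts) and averaged 4.95 ± 0.184 TPM. Its range overlapped that of Egr1, and Egr3 below it was 2.86-fold lower. Klf4 (chr4:55527143-55532466, minus strand), known as a reprogramming factor and from alternative macrophage activation, had 0.310 and 0.250 TPM from 30 and 12 counts and averaged 0.280 ± 0.0424 TPM. It was the sole member under 1 TPM, and its deposited intervals ran from 0.262 to 0.855 TPM in replicate 1 and from 0.193 to 0.954 TPM in replicate 2.

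**Figure D2:**
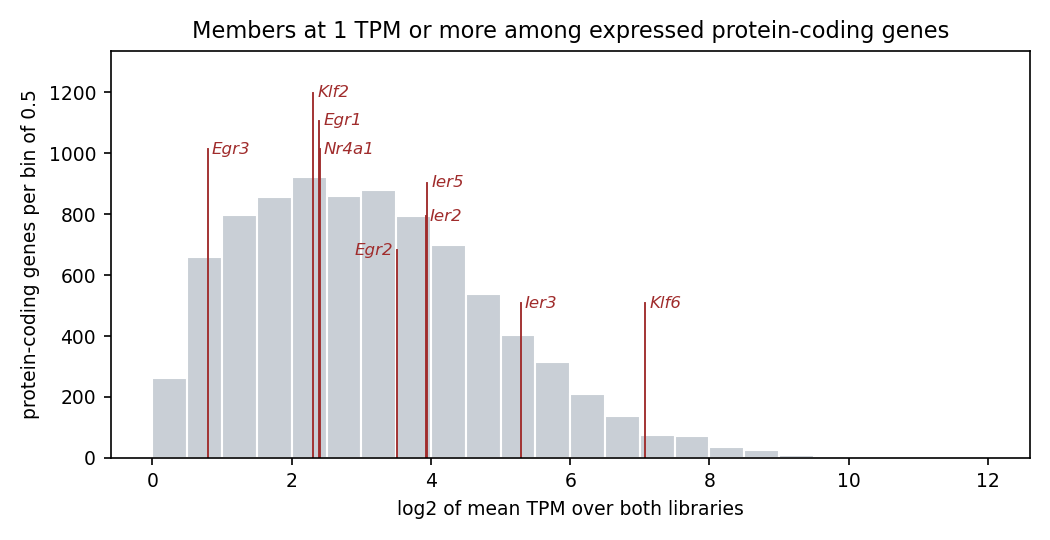
Number of expressed coding genes in bins of 0.5 on the log2 scale of mean TPM, with the 9 members at 1 TPM or more as red lines at their own means (line heights are for legibility). Klf6 and Ier3 lie in the upper tail, Egr3 near the lower end, and the other 6 across the middle.

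The neighbours in the order whose library ranges overlapped were Ier5 with Ier2, Nr4a1 with Egr1, and Egr1 with Klf2. The other 6 neighbouring pairs were separated, the closest of them Ier2 and Egr2 with a ratio of means of 1.33. The widest steps were those from Klf4 up to Egr3 (6.18-fold) and from Ier3 up to Klf6 (3.45-fold). The step up to Egr3 was 2.14-fold in the second quantification, where the step up to Klf6 was the widest (4.98-fold), and 3.58-fold with posterior mean TPM.

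Between the libraries, most members lay slightly on the side of lower values in replicate 2. The ratio is replicate 2 over replicate 1 of TPM + 0.1, on the log2 scale, minus its median over expressed coding genes, which was 0.38. Of the 9 members tested, 7 were below that median and 2 above it (Nr4a1 and Egr1), and the median of the members was -0.33. The quartiles of the expressed coding genes were -0.28 and 0.24. A single member, Ier3, was lower by more than 1.5-fold and none was higher by that much, where 9.60% of expressed coding genes were lower and 5.02% higher. That split was 10.1% lower and 8.69% higher in the second quantification, and 8.55% and 2.30% with TMM-scaled counts. With 1 group and 2 libraries, these ratios describe the libraries and have no test.

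Ier3 had a ratio of -0.79, which is 1.73-fold lower in replicate 2. Its estimated counts gave -0.81, with a 95% counting interval from -0.96 to -0.67, so its whole interval was beyond 1.5-fold. Ier5 and Klf2 both stood at -0.45 (1.37-fold lower), with counting intervals from -0.62 to -0.37 and from -0.79 to -0.19. Klf6 was at -0.33 in TPM and at -0.22 in counts, where the interval ran from -0.25 to -0.18. Egr3 was at -0.39, and the upper bound of its interval was at 0 when rounded.

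Nr4a1 was at 0.29, with a counting interval from 0.02 to 0.53, and Egr1 at 0.26, with one from -0.05 to 0.38. Egr2 was at 0 when rounded and Ier2 at -0.14, and both intervals included 0. The direction of Egr2 depended on the setting, with ratios from -0.23 in the second quantification to 0.02 with a pseudocount of 1 TPM, so 6 or 7 members lay below the median. Klf4, under the level tested, had a ratio of -0.60 with an interval from -1.83 to 0.28. The intervals are exact binomial intervals of the counts and cover counting error only.

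**Figure D3:**
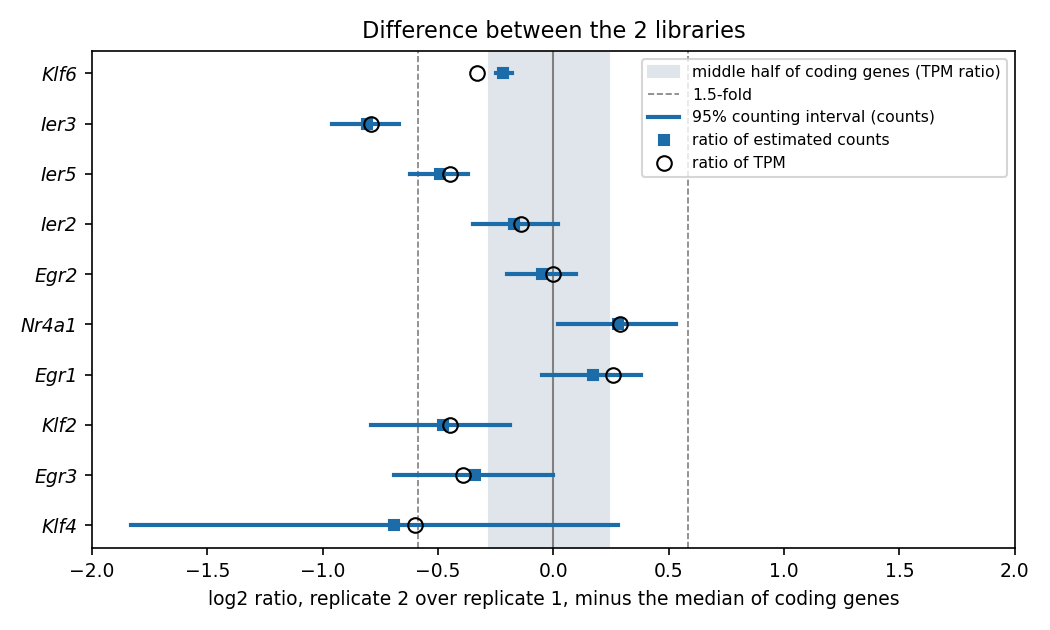
Log2 ratio of replicate 2 over replicate 1 for each gene, minus the median of expressed coding genes. Open circles are TPM ratios, squares are ratios of estimated counts with their 95% counting interval, the band is the range between the quartiles and dashed lines mark 1.5-fold. Ier3 alone lies wholly past a dashed line, at -0.79.

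The members were compact genes, as immediate-early genes generally are. Their median span was 5243 bases, against 24716 bases over expressed coding genes, and 9 of 10 were under 10 kb, against 23.1% of expressed coding genes. Nr4a1, with 20527 bases, was the exception, and Ier3, with 1240 bases and 2 exons, was the shortest. No annotated gene overlapped any of the 10. Ier2, Ier3, Ier5 and Klf2 had 1 annotated transcript each, and in Klf4 the transcript Klf4-201 took every count of the 3 annotated.

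Where a gene had several transcripts in use, 1 of them led in both libraries of the first quantification except in Egr3. Klf6-201, the full coding transcript of 4 exons, held 80.5% of the TPM of Klf6 in replicate 1 and 91.3% in replicate 2. Klf6-202, a retained-intron transcript of 799 bases, held 18.9% and 7.72%, but 3.26% (95% exact interval 2.98 to 3.55) and 1.21% (0.996 to 1.47) of the counts, since TPM weights a short transcript up. Egr2-201 held 84.9% and 73.1% of the TPM of Egr2, and Egr2-203, which starts within the first intron, held 9.03% and 14.2%. The second quantification turned both differences between the libraries around, with 56.2% and 71.1% for Egr2-201 and 17.4% and 15.6% for Egr2-203. Nr4a1-201 held 86.4% and 89.2%, and the retained-intron transcript Nr4a1-204 held 11.4% and 10.8%.

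Egr1 had 2 annotated transcripts, and both quantifications split them alike. Egr1-202 held 85.1% and 95.3% of the TPM. Egr1-201, whose start lies 1384 bases further upstream and which has 1448 bases in no other transcript, held 14.9% in replicate 1 and 4.67% in replicate 2. In counts this was 91 of 432 (21.1%, interval 17.3 to 25.2) in replicate 1 and 22 of 321 (6.85%, 4.34 to 10.2) in replicate 2, so the intervals did not overlap. The second quantification gave 22.0% (18.4 to 26.0) and 7.23% (5.09 to 9.91). The lower share stood in replicate 2, where the TPM of Egr1 was higher. Relative to expressed coding genes, Egr1 stood at 0.26 on the log2 scale, with a counting interval from -0.05 to 0.38 that included 0. A link between share and level was not tested.

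Egr3 was split the other way. Egr3-204, the spliced coding transcript, held 61.5% of its TPM in replicate 1 and 49.1% in replicate 2. Egr3-202, a single-exon retained-intron transcript with 221 bases of its own, held 29.3% and 50.9%. Those bases lie partly in the intron before the second exon of Egr3-204 and partly past its 3′ end. Egr3-204 has no bases of its own, so the share of Egr3-202 does not rest on intron sequence alone. In counts, Egr3-202 had 66 of 211 (31.3%, 25.1 to 38.0) and 56 of 110 (50.9%, 41.2 to 60.6), again without overlap. Differences of this size were common. The share of the leading transcript differed by more than 10 percentage points between the libraries in 4 of the 5 members with several transcripts in use, and in 39.0% of 8032 expressed coding genes with several transcripts, whose median difference was 7.53 points. The count of members was also 4 in the second quantification, but there Egr2 had the opposite direction. With shares of estimated counts it was 3, and there Klf6-201 differed by 1.90 points. The intervals take the assignment of reads to transcripts as given.

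**Figure D4:**
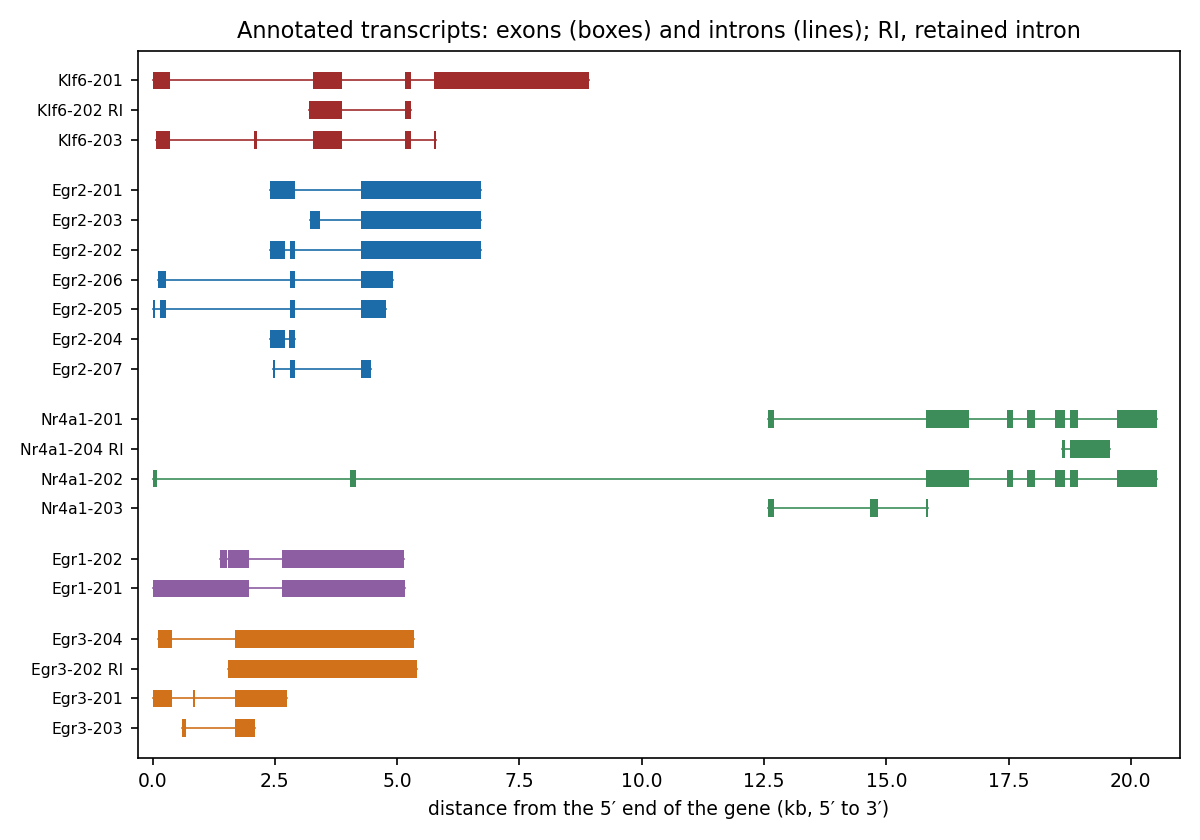
Annotated transcripts of the 5 members with several transcripts in use, drawn from the 5′ end of each gene in kb, with boxes for exons and lines for introns. Egr1-201 begins 1384 bases before Egr1-202, Egr3-202 is 1 unspliced block, and Nr4a1-202 spans all 20527 bases of its gene.

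In all, 3 members had an annotated retained-intron transcript. Their mean share of TPM was 13.3% in Klf6, 11.1% in Nr4a1 and 40.1% in Egr3, and the median over 5581 expressed coding genes with such a transcript was 34.6%. Klf6 and Nr4a1 were thus under the middle of the coding genes in this nuclear RNA, while Egr3 lay on either side of it, at 29.3% and 50.9% against medians of 35.2% and 34.3% in the same libraries. In the second quantification the share of Klf6 was 29.2% on average (36.7% and 21.8%), against medians of 38.8% and 39.4%. The share of Nr4a1-204 rested on 11 and 8 counts.

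The second quantification gave 8 of the 10 genes a lower TPM than the first in both libraries. The scale itself moved the same way. Over expressed coding genes the median log2 ratio, second over first, was -0.10 in replicate 1 and -0.21 in replicate 2. The share of those genes that was lower in both libraries was not counted. Ier5 had 9.11 and 8.61 TPM in the second quantification and 15.8 and 15.0 TPM in the first. Egr1 had 2.35 and 3.73 TPM in the second and 4.09 and 6.43 TPM in the first. Klf6 moved less, with 125 and 116 TPM in the second and 133 and 137 TPM in the first. Relative to the median of expressed coding genes, the log2 difference, second over first, was -0.69 and -0.58 for Ier5, -0.67 and -0.56 for Egr1, -0.57 and -0.65 for Ier2, -0.56 and -0.51 for Ier3, and 0.02 and -0.03 for Klf6. None of the 9 tested members was lower or higher by more than 1.5-fold in both libraries, where 3.12% of expressed coding genes were lower and 13.9% higher.

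Nr4a1 and Klf4 stood apart from the rest in this comparison. Nr4a1 had 4.77 and 6.42 TPM in the second quantification and 4.05 and 6.50 TPM in the first, a centred difference of 0.33 and 0.19. Its 344-base transcript Nr4a1-203 held 49.2% and 41.4% of the gene's TPM in the second quantification, from 5.71% and 4.57% of the counts, and was at 0 in the first. Klf4 had 0.486 and 0.576 TPM in the second and 0.310 and 0.250 TPM in the first, with a count ratio of 3.03 and 6.05, against medians of 1.38 and 1.80 over expressed coding genes. Of its 3047 distinct 31-base words, 61 (2.00%) recurred in other genes, 58 of them in the processed pseudogene Gm48640. In the first quantification Gm48640 was listed at 0 in both libraries, and its level in the second is not given here. The part of these shared words in the difference was not tested.

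**Figure D5:**
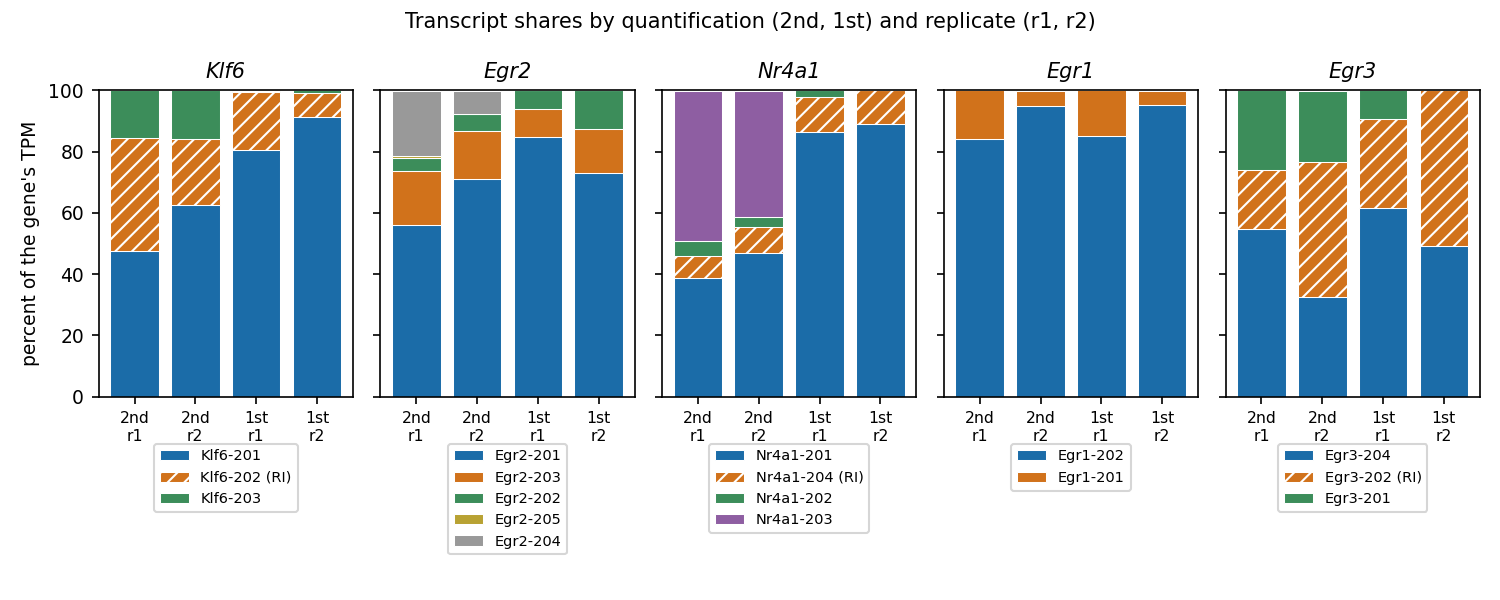
Percent of each gene's TPM per transcript in the second (2nd) and first (1st) quantification, for replicates r1 and r2, with retained-intron transcripts (RI) hatched. Egr1 is split alike by both, with Egr1-201 at 14.9% and 4.67% in the first, whereas Nr4a1-203 appears in the second alone.

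Most members carried the AU pentamer ATTTA in the 3′ UTR of the leading transcript. It was found in 9 of 10, against 67.6% of 8462 expressed coding genes with a 3′ UTR, and its median density was 1.97 per kb in the members and 1.34 per kb in those genes. Egr3 and Klf6 had 7 each, in long 3′ UTRs of 2645 and 3111 bases, and Ier2 had none in 755 bases. Ier3 was the densest, with 5 in 613 bases (8.16 per kb). The longer element TATTTAT occurred 4 times in Ier3, 2 times in Klf6 and 1 time in Klf2, that is in 3 of 10 members, against 28.7% of expressed coding genes. The stretch of Ier3 with a pair of them is shown for its density, from bases 175 to 204 after the stop codon in Ier3-201 on chromosome 17, with TATTTAT in capitals.
Ier3 3′ UTR: taattaaTATTTATgTATTTATgtatatcc

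Relatives outside the set were mostly low, and 3 KLF genes were at levels between those of Ier3 and Klf6 by mean. Of 18 family relatives, 6 reached 1 TPM in each library, and the median of all 18 was 0.40 TPM. Klf3, a repressor, had 39.6 and 67.7 TPM, Klf7 48.4 and 51.0 TPM, and Klf13 31.4 and 63.8 TPM, all below Klf6 in both libraries. Of the 6 relatives that reached 1 TPM, Klf13 was the single one beyond 1.5-fold between the libraries, at 0.64 on the log2 scale. Among expressed coding genes, 5.02% were higher and 9.60% lower by that much. Klf1, Klf12, Klf14, Klf15 and Klf17 were listed at 0 in both. Nr4a3, a paralogue of Nr4a1 named here after its values were seen, had 3.92 and 7.14 TPM, a range that overlapped that of Nr4a1. The EGR co-repressors Nab1 and Nab2 had 6.54 and 10.3 TPM and 4.14 and 5.50 TPM.

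All 13 factors that act at immediate-early promoters reached 1 TPM in each library, with a median of 14.1 TPM. The highest were the MADS-box factor gene Mef2a (51.6 and 91.0 TPM), the CREB coactivator gene Crtc2 (56.2 and 74.1 TPM) and Creb1 (29.1 and 50.2 TPM). The lowest were the ETS factor gene Elk3 (4.60 and 7.61 TPM) and Srf (3.39 and 6.08 TPM). Elk3 was above Egr1 (4.09 and 6.43 TPM) in both libraries and Srf was below it in both. Their median library ratio was 0.37, and 2 of 13 (Atf1 and Crtc3) were higher by more than 1.5-fold in replicate 2. Among expressed coding genes, 5.02% were higher by that much.

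All 11 kinases of the ERK pathway also reached 1 TPM in each library, with a median of 17.0 TPM. Map3k8, the TPL2 kinase that links TLR4 to MEK, was the highest, with 70.3 and 63.3 TPM, and Map2k1 (MEK1) had 21.4 and 28.6 TPM. Rps6ka1 (6.35 and 7.58 TPM) was the lowest by mean level. Their median library ratio was -0.12, and 1 of them, Rps6ka4, was lower by more than 1.5-fold. Among expressed coding genes, 9.60% were lower by that much.

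Of 21 other immediate-early and early stress genes, 18 reached 1 TPM in each library, with a median of 13.4 TPM over all 21. Gadd45b, a stress-response gene, had 240 and 167 TPM, the survival gene Mcl1 had 171 and 215 TPM, and Zfp36 had 142 and 107 TPM, so Gadd45b and Mcl1 exceeded Klf6 in both libraries and Zfp36 in replicate 1. Ccn1 (0.050 and 0.10 TPM) and Arc (0.010 and 0.020 TPM) were the lowest. Of the 18, 6 were lower in replicate 2 by more than 1.5-fold and 1, Fosb, was higher. Over expressed coding genes, 9.60% were lower and 5.02% higher by that much. The 6 were Gadd45b, Zfp36, Junb, Plk2, Atf3 and Jun, named here after their values were seen. The median ratio of this list was -0.30, that of the tested members of the set -0.33 and that of the upstream factors 0.37, and these lists were not compared by a test.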

How the data were processed

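Per the file headers and notes, the authors deposited for each library a gene and a transcript table from 1 quantification, made from reads aligned to the transcriptome (mm10, GENCODE M21), and a transcript table from a second quantification of 10 read files. Which aligner and quantifiers were run is not given in the sources used here. As deposited by the authors, the estimated counts are read numbers that need not be whole (those of all 10 members were, within 0.01, in the first quantification). The deposited TPM values are scaled to length and to a fixed total over all features. The deposited FPKM values are scaled to length and library size, and served as an alternative. The deposited interval bounds (unit signal, in TPM) and posterior means surround the authors' estimate, and for Klf6 the bounds lie below the listed TPM. Rows with no annotated gene took 1.14% and 0.304% of the counts and stayed out of ratios.

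Levels, ranks, ratios, transcript shares, motifs and shared 31-base words were computed with Python 3.11.15, numpy 2.4.6, pandas 2.3.3 and scipy 1.17.1, and figures with matplotlib 3.10.9. Second-quantification levels are sums over a gene's transcripts. The pseudocount was 0.1 TPM and expressed coding genes reached 1 TPM in each library. TMM scaling used edgeR 4.0.16 and size factors DESeq2 1.42.0 in R 4.3.3, on counts rounded to whole numbers. The centred ratio with its 1.5-fold call, and the ratios with TMM and DESeq2 scaling, were tested on simulated data. The other steps were not. With 1 group, no test between conditions was made. Named genes were all 10 members by symbol and, of each list, at most the 3 highest and 2 lowest by mean TPM. The exceptions named in the text were chosen after their values were seen. The members and lists were chosen with earlier results of these data known. Protein sequences were not used here, and some genes of the lists are not reported here.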

Additional observations from a re-analysis of the deposited data

How the results depend on the processing

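Levels changed with the scale more than their order did. In the first quantification 4 members reached 10 TPM in each library, against 2 in the second quantification and 8 after TPM were rescaled to protein-coding genes. The cause was not tested for the second quantification, and the rescaled count follows from the smaller total. With FPKM, posterior mean TPM or 1 library left out, 4 or 5 were. At least 8 of 10 members kept their place in the order under each of the 6 alternatives. The 1 member beyond 1.5-fold between the libraries was also 1 under 10 of 11 alternatives and 0 with a threshold of 2-fold, and Ier3 ran from -0.86 to -0.72. The members' median ratio ran from -0.36 to -0.24. For the difference between quantifications, 0 members were beyond 1.5-fold in both libraries, and 1 or 2 when a single library was used. The transcript that led in the first quantification held 42.8% (second quantification) and 87.8% (first) in Nr4a1, and 55.1% and 85.9% in Klf6. In the second quantification Nr4a1-203 held 49.2% and 41.4% in replicates 1 and 2, against 38.8% and 46.8% for Nr4a1-201, so the leader differed by library. The library difference of the Egr2-201 share, replicate 2 minus replicate 1, was 14.9 points in the second quantification and -11.8 points in the first, a reversal whose cause was not tested. No ratio of a member beyond 1.5-fold changed direction. No paired analysis was possible because there is 1 group. Klf4, with 30 and 12 counts, is limited most by depth.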
